A study of Mus musculus with 8 samples.

Results

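Immediate early genes of neuronal activity were examined in the hippocampus of male 3 × Tg-AD mice, a line in which every animal carries mutant human amyloid precursor protein and tau together with a presenilin 1 mutation. The RA group received a normal diet supplemented with 0.5% rosmarinic acid (RA), a polyphenol of rosemary and lemon balm, for 8 months, and the control group received the same diet without RA. All mice were 10 months old. Each group holds 4 arrays (RA 1 to RA 4 and control 1 to control 4), which measured total hippocampal RNA. The methods name 4 mice of average weight per group but also speak of pooled total RNA. It is therefore not settled whether an array stands for 1 mouse, and the spread between arrays may be technical.

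The group consists of 10 genes, Fos, Fosb, Junb, Egr1, Egr2, Egr4, Ier2, Arc, Nr4a1 and Dusp1, out of 18193 genes named on the array. They were chosen on the difference between RA and control in these same arrays, so their own difference is given here as a description, without a test, and supports nothing further. A total of 11 of 45037 probe sets, each a set of oligonucleotides that reads a single transcript, name these genes alone. The deposited values are log2 summaries made with FARMS, which returns nearly the same value on every array where the oligonucleotides of a set do not vary together. A probe set with an SD over the 8 arrays of at most 0.01 was therefore taken as unmeasured, which left 9 probe sets of 8 genes. The lowest SD among these was 0.223 for Ier2. The probe sets of Fosb and Egr4 had SDs of 0.000261 and 0.00028 and give no measure of either transcript.

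Immediate early genes are transcribed within minutes of synaptic activity from factors already present in the neuron, without new protein synthesis. Calcium entry and kinase cascades act on the transcription factors CREB, which binds the cyclic AMP response element, and SRF, which binds the CArG box. In the hippocampus, Fos and Arc are widely used to mark the neurons engaged by a recent experience. The same genes also respond to growth factors and stress in glial and vascular cells. In whole tissue, a change in the number of expressing cells and a change in RNA per cell cannot be told apart.

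Because the genes are known for rapid induction through these elements, the 250 bases upstream of the annotated start were searched. The promoter table of RefSeq (GRCm38.p6) holds 7 of the 10 genes, without Egr1, Ier2 and Arc. The core of the cyclic AMP response element, TGACG on either strand, was present in all 7, for Egr2 at 3 of its 5 annotated starts. Of all 18109 promoters of genes on the array, 22.7% hold it. It occurred at 2 or more places in 5 of the 7 (Fos, Egr2, Egr4, Nr4a1 and Dusp1), against 5.44% of these promoters. The full element TGACGTCA, whose strands each count as a place for TGACG, was found for Dusp1 (2.12% of promoters), and a CArG box for Egr2 (1.23% of promoters). The motif of the EGR proteins, GCGNGGGCG on either strand, was found for Fosb and Nr4a1 (7.36% of promoters). The promoters were not matched for base composition, and a match is not evidence of a bound site. Bases further upstream were not searched, so the lack of a match does not show that a gene lacks the element. The upstream bases of the measured genes in the table are shown 5′ to 3′, with TGACG (or its reverse strand) and the CArG box in capitals; for Egr2 the third of the 5 starts is shown.
Fos (chr12:85473640-85473889, plus strand): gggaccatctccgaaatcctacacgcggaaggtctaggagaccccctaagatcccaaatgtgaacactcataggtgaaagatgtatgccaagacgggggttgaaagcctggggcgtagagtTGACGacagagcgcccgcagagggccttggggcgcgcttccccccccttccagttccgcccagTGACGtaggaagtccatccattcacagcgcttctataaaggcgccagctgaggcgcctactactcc
Junb (chr8:84978749-84978998, minus strand): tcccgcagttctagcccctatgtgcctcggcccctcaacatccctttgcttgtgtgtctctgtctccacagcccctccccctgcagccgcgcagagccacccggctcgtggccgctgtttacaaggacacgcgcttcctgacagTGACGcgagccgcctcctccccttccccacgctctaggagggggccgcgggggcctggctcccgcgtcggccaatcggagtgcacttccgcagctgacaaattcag
Egr2 (chr10:67537619-67537868, plus strand): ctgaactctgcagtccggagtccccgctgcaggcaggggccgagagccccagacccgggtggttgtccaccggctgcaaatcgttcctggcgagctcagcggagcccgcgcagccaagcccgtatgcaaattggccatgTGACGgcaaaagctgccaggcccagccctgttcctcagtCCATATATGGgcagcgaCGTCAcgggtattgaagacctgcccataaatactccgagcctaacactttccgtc
Nr4a1 (chr15:101266596-101266845, plus strand): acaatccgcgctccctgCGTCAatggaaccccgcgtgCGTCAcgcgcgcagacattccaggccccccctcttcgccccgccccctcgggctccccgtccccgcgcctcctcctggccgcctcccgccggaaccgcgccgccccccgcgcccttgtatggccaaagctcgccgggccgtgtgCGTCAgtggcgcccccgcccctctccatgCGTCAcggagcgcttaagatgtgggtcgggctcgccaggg
Dusp1 (chr17:26508473-26508722, minus strand): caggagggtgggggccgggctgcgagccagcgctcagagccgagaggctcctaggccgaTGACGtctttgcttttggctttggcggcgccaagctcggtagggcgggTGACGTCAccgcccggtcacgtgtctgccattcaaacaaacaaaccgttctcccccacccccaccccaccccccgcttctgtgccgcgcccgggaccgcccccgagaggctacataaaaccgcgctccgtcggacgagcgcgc
TGACG thus occurred at 4 places upstream of Nr4a1, at 3 upstream of Dusp1, at 2 upstream of Fos and of this start of Egr2, and at 1 upstream of Junb.

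Of the genes of the AP-1 transcription factor, Fos had the largest difference of the group. Its log2 value was 8.23, 8.01, 7.47 and 7.67 in RA 1 to RA 4, against 7.21, 7.33, 6.99 and 7.17 in control 1 to control 4. Every RA array lay above every control array, and RA 1 and RA 2 lay above RA 3 and RA 4. The mean was 7.84 ± 0.341 in the RA group and 7.17 ± 0.139 in the control group (SD, n = 4 each), a log2 fold change of 0.67 (standard error 0.177) or 1.59-fold. Junb encodes a partner with which Fos pairs to bind DNA. Junb had log2 values of 7.75, 7.60, 7.36 and 7.40 in RA 1 to RA 4, against 7.11, 7.26, 7.08 and 7.27 in control 1 to control 4. The groups did not overlap, and the order of the RA arrays was that of Fos. The log2 fold change was 0.35 (standard error 0.100).

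The EGR genes encode zinc finger transcription factors. Egr1, which is needed for the maintenance of long-term potentiation, had log2 values of 9.97, 9.84, 9.77 and 9.88 in RA 1 to RA 4, against 9.08, 9.90, 9.37 and 9.45 in control 1 to control 4. The RA arrays lay close together, whereas the control arrays spread over a wide range, with control 2 among the RA arrays. The mean was 9.86 ± 0.0851 in the RA group and 9.45 ± 0.340 in the control group (SD, n = 4 each), a log2 fold change of 0.41 (standard error 0.168). Egr2, best known for its role in myelination and hindbrain patterning and also induced by synaptic activity, has 2 probe sets. The first had log2 values of 5.87, 5.76, 5.50 and 5.49 in RA 1 to RA 4, against 5.30, 5.39, 5.22 and 5.32 in control 1 to control 4. The other had log2 values of 6.09, 6.08, 5.80 and 5.65 in RA 1 to RA 4, against 5.49, 5.50, 5.24 and 5.64 in control 1 to control 4. Both separated the groups, but in the second RA 4 lay only 0.01 above control 4. The log2 fold change was 0.35 (standard error 0.0977) in the first and 0.44 (standard error 0.132) in the second.

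Nr4a1 encodes an orphan nuclear receptor. The log2 value of Nr4a1 was 8.58, 8.15, 8.21 and 8.31 in RA 1 to RA 4, against 7.91, 8.11, 8.17 and 7.76 in control 1 to control 4. The groups overlapped narrowly, with RA 2 just under control 3, and the log2 fold change was 0.33 (standard error 0.128). Ier2 encodes a small nuclear protein of the immediate early response. The log2 value of Ier2 was 6.54, 6.47, 6.11 and 6.19 in RA 1 to RA 4, against 6.09, 6.08, 6.05 and 5.88 in control 1 to control 4. The groups did not overlap, but RA 3 lay only 0.016 above control 1. The log2 fold change of Ier2 was 0.30 (standard error 0.112), the smallest of the measured probe sets.

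Arc and Dusp1 encode effector proteins. Arc acts at the synapse in the endocytosis of AMPA receptors. The log2 value of Arc was 7.62, 6.95, 6.71 and 7.26 in RA 1 to RA 4, against 6.38, 7.12, 7.01 and 6.74 in control 1 to control 4. The groups overlapped widely, and RA 3 was below 3 control arrays. The log2 fold change of 0.32 (standard error 0.246) was 0.16 without RA 1 and 0.18 without control 1. Dusp1 encodes a phosphatase that inactivates the JNK, p38 and ERK kinases. Its log2 value was 8.29, 8.12, 7.84 and 7.89 in RA 1 to RA 4, against 7.71, 7.40, 7.21 and 7.32 in control 1 to control 4. The groups did not overlap, and control 1 was the nearest control array to the RA group. The mean was 8.03 ± 0.211 in the RA group and 7.41 ± 0.215 in the control group (SD, n = 4 each), a log2 fold change of 0.62 (standard error 0.144) or 1.54-fold.

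**Figure D1:**
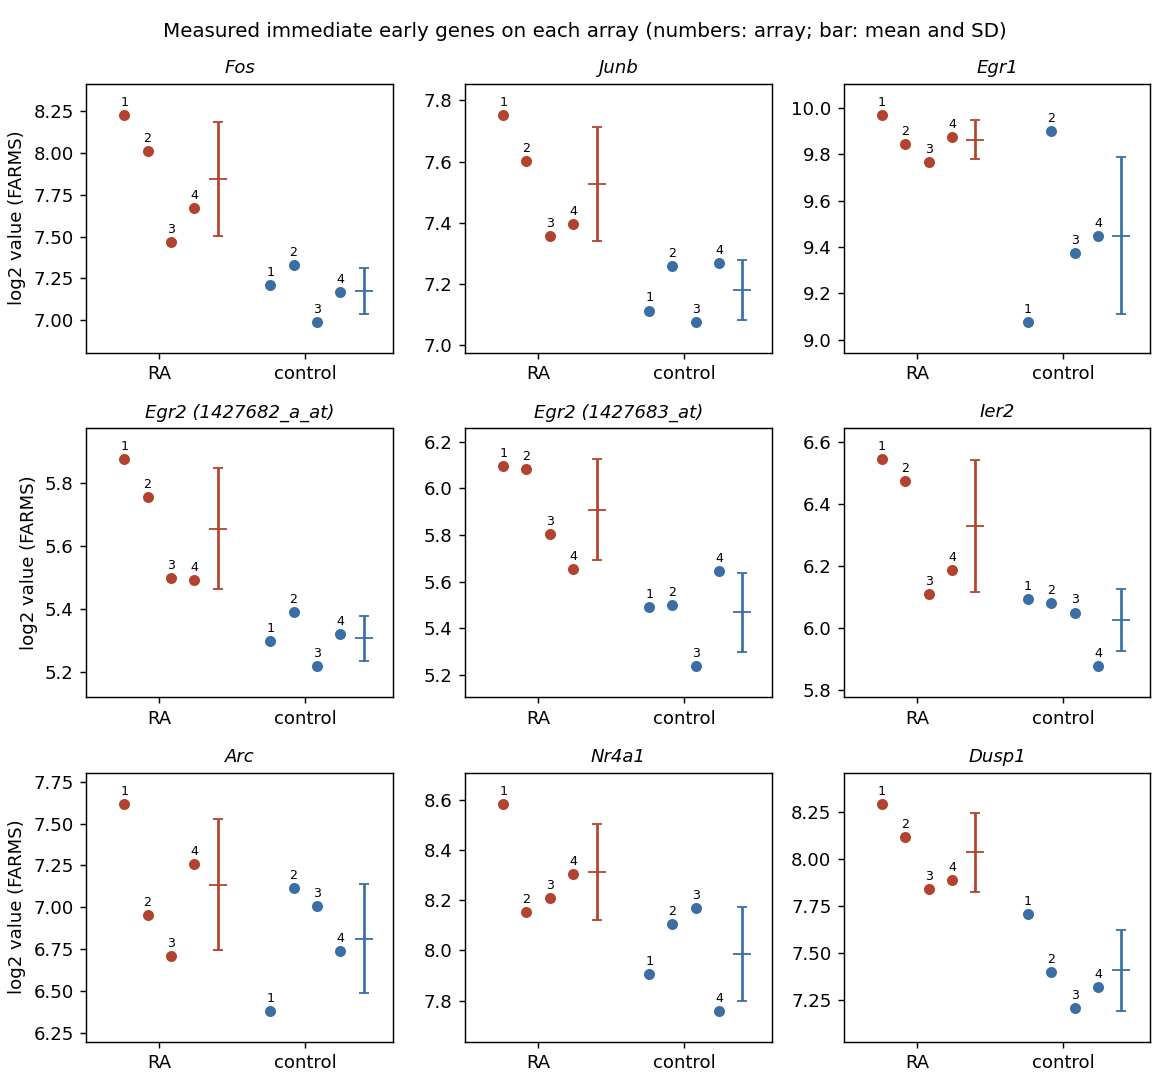
Log2 FARMS values of the 9 measured probe sets on each array, RA arrays on the left and control arrays on the right of each panel. Numbers give the array, and bars the mean and SD (n = 4 arrays per group). The groups are separate in 6 panels and overlap for Egr1, Arc and Nr4a1, and RA 1 is the highest point in all 9.

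In all, 6 of the 9 measured probe sets, from 5 genes, had every RA array above every control array. Of all 3758 probe sets that passed this SD, 2.71% were so. The rank product, the test named in the methods, ranks the probe sets in each of the 16 pairings of RA with control arrays and compares the ranks with 100 permutations. With the proportion of false positives estimated at under 0.05, it called all 9 probe sets higher. It called 0.906% of all probe sets higher, which is 10.9% of those with an SD above 0.01. Among these 3758 alone it called 0.106% higher and none of the 9. limma called none of the 9 at a Benjamini-Hochberg adjusted p under 0.05, nor any other probe set (0% of 45037). As the genes were chosen on this contrast, nothing is read from these counts. Without RA 1 or RA 2 the rank product called the probe sets of Fos and Dusp1, and without RA 3 or RA 4 those of Fos and Dusp1 and 1 of the 2 probe sets of Egr2. In these fits between 17 and 44 probe sets were called higher in all, in place of 408. The filter on low means also left the probe sets of Fos and Dusp1 called, and without control 1 Arc was not called.

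The arrays of the RA group were not alike, and their order was much the same from gene to gene. RA 1 was the highest of all 8 arrays in each of the 9 measured probe sets. RA 3 was the lowest RA array in 6 of the 8 genes. RA 1 and RA 2 were the highest and the next RA array for Fos, Junb, Egr2, Ier2 and Dusp1. For Arc, Nr4a1 and Egr1, RA 4 was next to RA 1 instead. The mean over the 8 genes, each relative to its own average, was 0.48, 0.25, 0.0032 and 0.13 in RA 1 to RA 4, against -0.28, -0.067, -0.26 and -0.25 in control 1 to control 4. RA 3 thus lay near the average of all arrays, and control 2 nearest to it among the controls. Within the groups, after each group mean was subtracted, the correlation over the 8 arrays between a gene and the mean of the other 7 was 0.94 for Fos, 0.88 for Junb, 0.78 for Ier2 and 0.59 for Arc. It was 0.52 for Egr2, 0.52 for Dusp1, 0.43 for Nr4a1 and 0.39 for Egr1. Of the 28 pairs of genes, 26 had a correlation above 0, with a median of 0.51. These correlations describe 8 arrays that share hybridisation and tissue composition, and no test was made.

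Other genes that neuronal activity induces were examined on the same arrays, as they were not among those chosen. Of 51 such genes, 49 have a probe set of their own, and 22 of these had an SD above 0.01 in the probe set with the highest mean. The rest are unmeasured in that probe set, by the same rule as Fosb and Egr4. Among the 22 the rank product called 1 higher (4.55%, against 10.9% of the 3758 probe sets that vary) and none lower (6.84% of those that vary). Over all 49 this was 2.04% higher, against 0.906% of all probe sets higher and 0.571% lower, but a far larger share of the 49 varied than of all probe sets. limma called none at an adjusted p under 0.05 and gave none of the 22 an unadjusted p under 0.05, against 9.66% of the probe sets that vary (10.1% of all). This depends on the choice of probe set. In probe sets other than those with the highest mean, limma gave Btg2 an unadjusted p of 0.0036 and Homer1 one of 0.041. The RA mean was the higher for 17 of the 22 (77.3%), against 73.1% of all 3758 probe sets that vary. Their median log2 fold change was 0.029, against 0.069 for all probe sets that vary and 0.38 for the 8 genes chosen.

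The gene called was Ier3, which encodes a stress-inducible regulator of cell survival. Its log2 value was 7.11, 7.02, 6.78 and 6.48 in RA 1 to RA 4, against 6.87, 6.44, 6.24 and 6.58 in control 1 to control 4. The groups overlapped, and the log2 fold change was 0.31 (standard error 0.186, adjusted p = 0.608 from limma). The call was lost without any RA array and without control 2 or control 3. Npas4, a transcription factor induced selectively by calcium entry, had log2 values of 6.05, 6.41, 5.32 and 5.60 in RA 1 to RA 4, against 5.42, 5.76, 5.38 and 5.67 in control 1 to control 4. As in Fos, RA 1 and RA 2 were the highest, but RA 3 was the lowest array of all, and the gene was not called (log2 fold change 0.29, standard error 0.248). Cebpd, a factor of the acute phase response, differed by 0.02 (standard error 0.341), the kinase Sgk1 by 0.044 (standard error 0.325) and the small GTPase Rasd1 by 0.092 (standard error 0.313). None of these was called.

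When each probe set was counted rather than 1 per gene, 4 genes were called higher, namely Ier3, Btg2, Klf6 and Homer1, and Homer1 was also called lower by another probe set. These are 4 of the 35 probe sets of such genes that vary (11.4%, against 10.9% of all that vary). All 4 calls higher were lost without any RA array, with the replicate block and under the filters on mean and SD. The antiproliferative gene Btg2, chosen here after its values were seen, had log2 values of 6.45, 6.45, 6.27 and 6.27 in RA 1 to RA 4, against 6.13, 6.17, 6.05 and 6.02 in control 1 to control 4. Its groups did not overlap, and RA 1 and RA 2 again lay above RA 3 and RA 4 (log2 fold change 0.27, standard error 0.0602, adjusted p = 0.326 from limma). For Homer1, whose short activity-induced isoform competes with the long scaffold forms, the log2 fold change was 0.18 (standard error 0.070) in 1 probe set and -0.25 (standard error 0.291) in another. The probe sets thus disagreed in direction, and which isoform each measures was not examined.

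**Figure D2:**
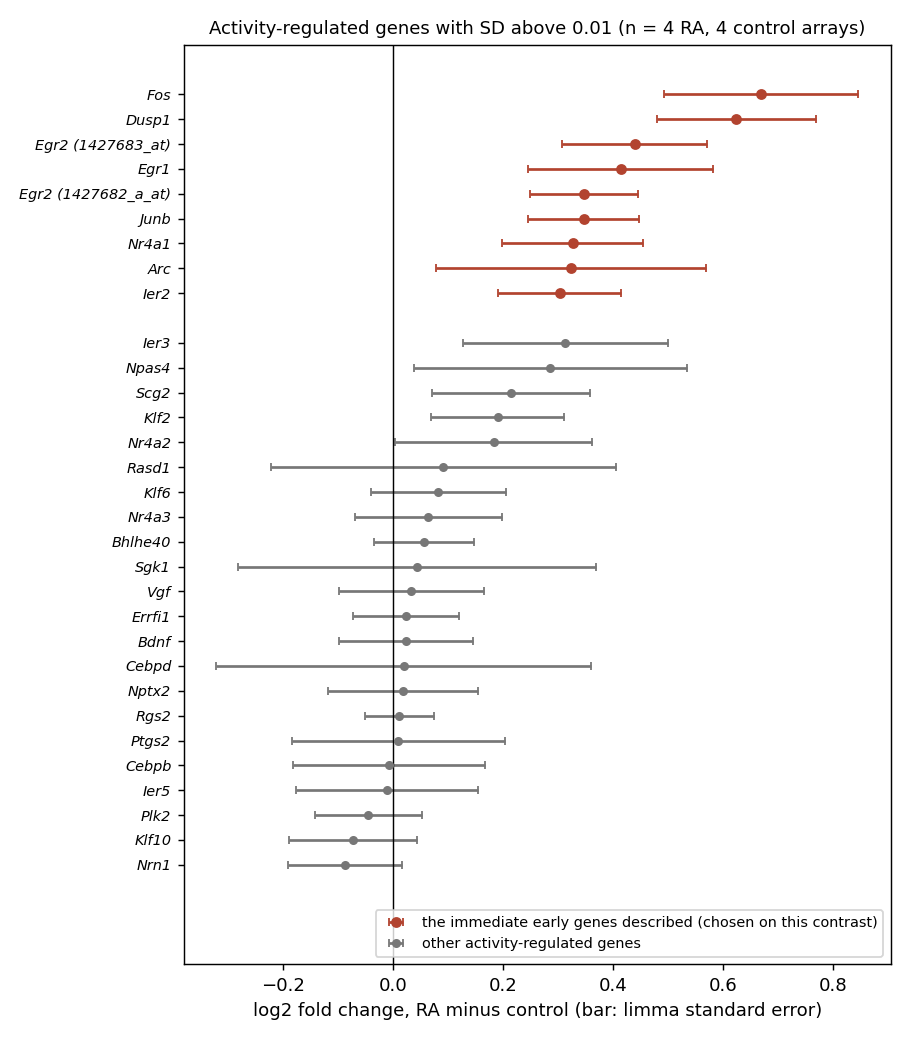
Difference in log2 value (RA minus control, 4 arrays in each group) with limma's standard error as bars, for the 9 measured probe sets at the top and the 22 other activity-regulated genes with an SD above 0.01 below them. The measured probe sets were chosen on this contrast and run from 0.30 to 0.67, and the other genes run from -0.09 for Nrn1 to 0.31 for Ier3.

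Genes around this response were also examined. Most of them were unmeasured, so the counts are over genes with an SD above 0.01 in the probe set with the highest mean. Among all probe sets with an SD above 0.01 the rank product called 10.9% higher and 6.84% lower. Of 13 genes of AP-1 partners and EGR corepressors 2 were measured, and neither was called. These were Jund (log2 fold change 0.21, standard error 0.126) and Mafg (0.091, standard error 0.0792). Of 24 receptors, kinases and transcription factors upstream of immediate early genes 9 were measured, of which 1 was called higher and 1 lower (11.1% each). Map2k1, the MEK1 kinase that activates ERK, was lower in every RA array, at 10.39, 10.35, 10.24 and 10.40 in RA 1 to RA 4, against 10.45, 10.49, 10.49 and 10.48 in control 1 to control 4 (log2 fold change -0.13, standard error 0.0352, adjusted p = 0.365 from limma). Mef2c, an activity-dependent transcription factor, was called higher (0.32, standard error 0.351, adjusted p = 0.783 from limma), with control 3 far below the other arrays at 8.67. Of 19 MAP kinase phosphatases and their kinases other than Dusp1, 8 were measured and none was called in that probe set. With every probe set counted, 11 of this list vary, of which 1 was called lower and none higher. In the upstream list 23 vary, of which 1 was called higher and 2 lower. Dusp6, an ERK phosphatase, differed by 0.23 (standard error 0.180) and Dusp5 by 0.0046 (standard error 0.183). Mapk10, which encodes JNK3, differed by -0.048 (standard error 0.0436) in the probe set with the highest mean, the only one given here. The gene of the probe set called lower in this list is not given either. The value of Mapk10 therefore cannot be set against the paper's result for this gene. The paper reported Jnk3 as downregulated in its own array analysis and by quantitative RT-PCR. It also reported a change in JNK3 protein, which did not reach its own threshold of significance. From its array analysis it reported Map2k1 as downregulated and Dusp1 as upregulated, the latter also by quantitative RT-PCR.

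Dusp1 and Sgk1 also respond to glucocorticoids. Of 15 genes induced by glucocorticoids 10 were measured, of which 1 was called higher and 1 lower (10% each, against 10.9% higher and 6.84% lower of all that vary). Txnip, an inhibitor of thioredoxin, was higher in every RA array, at 7.04, 7.16, 6.95 and 7.20 in RA 1 to RA 4, against 6.85, 6.82, 6.83 and 6.76 in control 1 to control 4 (log2 fold change 0.27, standard error 0.0575, adjusted p = 0.326 from limma). Tsc22d3, which encodes the leucine zipper protein GILZ, was called lower, at -0.22 (standard error 0.152, adjusted p = 0.653 from limma). The chaperone Fkbp5 differed by -0.13 (standard error 0.102). The RA mean was the higher for 7 of the 10 measured genes and the lower for 3 (70% higher, against 73.1% of all that vary). Their median log2 fold change was 0.06, against 0.069 for all probe sets that vary. Of 12 heat shock and dissection stress genes 4 were measured, and none was called in the probe set with the highest mean. With every probe set counted, 15 of the glucocorticoid list vary, of which 2 were called higher and 1 lower. In the heat shock list 10 probe sets of 5 genes vary, of which 3 were called lower and none higher. Hspb1 differed by 0.19 (standard error 0.194) and Hspa1b by -0.12 (standard error 0.149). The mean of the glucocorticoid list stood at 0.011, -0.061, -0.034 and 0.14 in RA 1 to RA 4. In control 1 to control 4 it stood at -0.19, 0.013, 0.14 and -0.02. The mean of the heat shock list stood at -0.045, 0.091, -0.083 and 0.069 in RA 1 to RA 4. In control 1 to control 4 that mean stood at 0.12, -0.16, -0.099 and 0.10. The part of these responses in the values of the immediate early genes was not tested.

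The arrays also differed in the RNA levels of cell type markers. Defining markers of the hippocampus were measured, with 9 of 10 genes of dentate granule cells and 8 of 9 of pyramidal neurons above an SD of 0.01. The granule cell list, relative to its average, stood at -0.50 in RA 2 and at -0.54 in control 1, and between 0.077 and 0.35 in the other arrays. The pyramidal list was also lowest in RA 2 (-0.47) and control 1 (-0.29). These are means, and the markers disagreed in control 1. The granule cell markers Dsp (5.36) and Prox1 (6.14) were the lowest of all arrays there. Calb1 (10.47) and C1ql2 (6.96) of the same list, and the pyramidal marker Wfs1 (9.21), were the highest of all arrays there. RA 2 was the second highest array in the mean of the immediate early genes, and control 1 the lowest. Without both arrays the log2 fold change was 0.63 for Fos, 0.70 for Dusp1, 0.30 for Junb, 0.30 for Egr1 and 0.24 for Arc. RA 2 was the highest array in the meningeal list (0.72, with other arrays at up to 0.094) and in the list of endothelial cells and pericytes (0.73, with other arrays at up to 0.15). RA 1, the array with the highest immediate early genes, stood at -0.27 and -0.16 in these lists and was the highest in the microglial list (0.30).

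Calls among markers are given over the genes with an SD above 0.01, beside 10.9% higher and 6.84% lower of all such probe sets. Of 13 choroid plexus genes, 13 were called higher, with a mean log2 value of 5.58 to 7.83 in the RA arrays and of 5.61 to 8.12 in the control arrays. Relative to its average, this list stood at -0.11, -0.95, 0.85 and 1.31 in RA 1 to RA 4. In control 1 to control 4 it stood at -0.92, -0.89, 1.59 and -0.88. On the same arrays the mean of the 8 immediate early genes stood at 0.48, 0.25, 0.0032 and 0.13 in RA 1 to RA 4. In control 1 to control 4 that mean stood at -0.28, -0.067, -0.26 and -0.25. Of 12 meningeal genes 6 were called higher (50%), of 6 endothelial and pericyte genes 3 (50%), and of 6 thalamic genes 4 (66.7%). The means of the meningeal list were 6.71 to 7.70 in the RA arrays and 6.71 to 6.998 in the control arrays, and those of the vascular list were 7.35 to 8.25 in the RA arrays and 7.33 to 7.42 in the control arrays. For thalamic genes they were 6.71 to 7.45 in the RA arrays and 6.62 to 7.18 in the control arrays. RA 1 and RA 2 were the highest arrays in the thalamic list as well (0.32 and 0.46). Of pyramidal genes 2 of 8 were called lower (25%), and of granule cell genes 2 of 9 (22.2%). Among interneuron and astrocyte genes 1 of 6 each was called higher, among oligodendrocyte genes 1 of 9 lower, among striatal genes 1 higher and 1 lower of 4, and among blood cell genes none of 3. The blood cell list stood at 0.15, 0.081, -0.12 and -0.12 in RA 1 to RA 4. In control 1 to control 4 it stood at -0.14, 0.27, -0.14 and 0.018. No microglial gene of 6 was called, with means of 8.30 to 8.67 in the RA arrays and 8.07 to 8.46 in the control arrays. The part of these cells in the values of the immediate early genes was not tested.

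**Figure D3:**
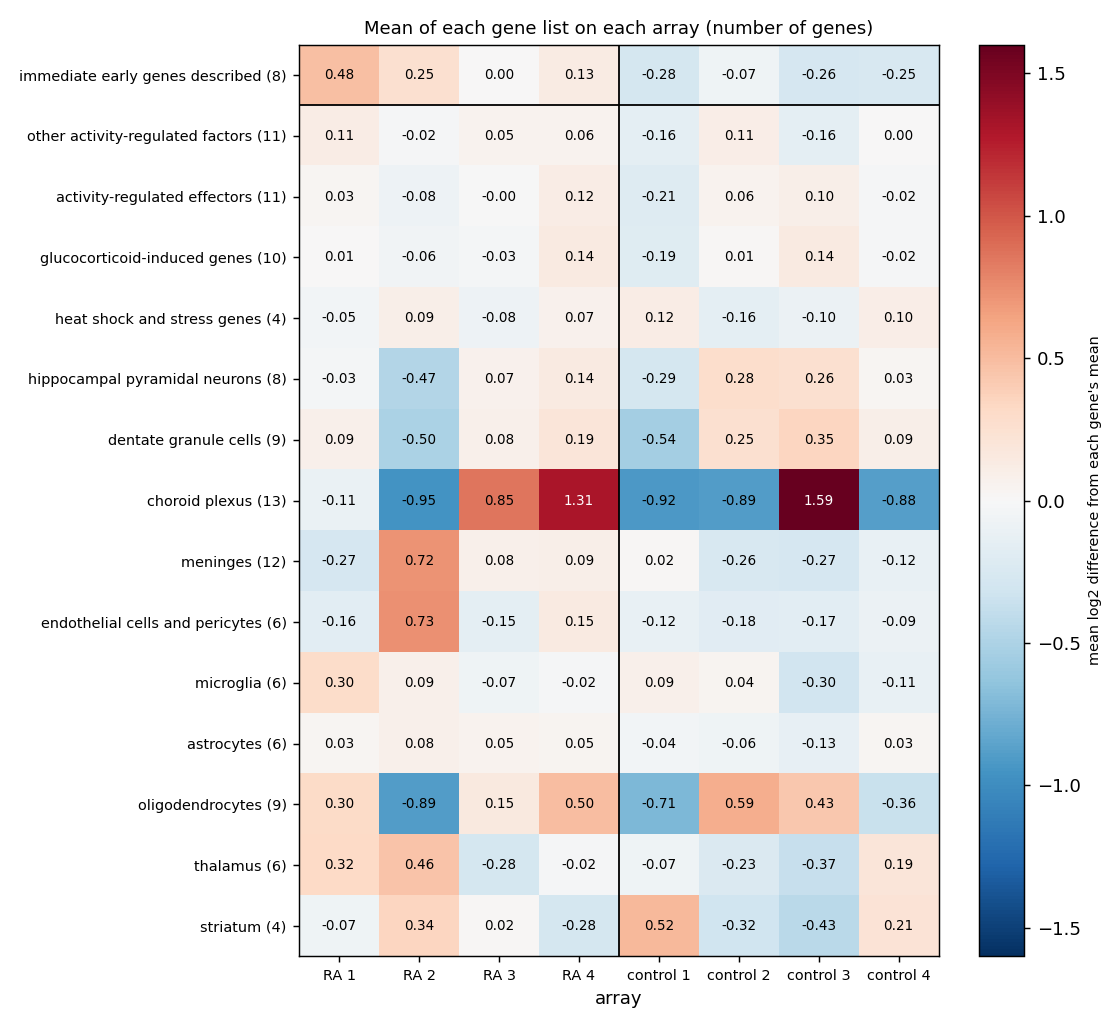
Mean log2 difference of each gene list from its genes' averages over the 8 arrays, with the number of genes that vary in parentheses, RA arrays on the left and control arrays on the right of the line. The immediate early genes are highest in RA 1 (0.48) and RA 2 (0.25), the granule and pyramidal lists are lowest in RA 2 and control 1, and the choroid plexus list is highest in control 3 (1.59) and RA 4 (1.31).

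The genes whose pattern within the groups was most like the mean of the 8 immediate early genes were sought among 3400 other probe sets that name 1 gene and vary. Likeness was the correlation over the 8 arrays after the group means were subtracted, so that the difference between the groups did not enter it. Lcn2, which encodes the iron-binding acute phase protein lipocalin 2, came first (r = 0.97), followed by Ch25h, cholesterol 25-hydroxylase (r = 0.95). The next were Lrg1 (r = 0.88), the neuropeptide galanin (Gal, r = 0.86), Plac8 (r = 0.86), the calcium-binding protein S100a8 (r = 0.84), the chemokine Ccl12 (r = 0.84) and the complement component C1qb (r = 0.84). Of these, S100a8 is also in the blood cell list and C1qb in the microglial list. Lcn2 had log2 values of 6.99, 6.13, 5.73 and 5.73 in RA 1 to RA 4, against 5.76, 6.24, 5.62 and 5.73 in control 1 to control 4. RA 1 was far above the rest, and control 2 was the highest control array. Ch25h had log2 values of 6.42, 5.79, 5.54 and 5.63 in RA 1 to RA 4, against 5.45, 5.70, 5.53 and 5.44 in control 1 to control 4, again with RA 1 far above the rest. Both were called higher by the rank product, although their groups overlapped (standard errors 0.314 and 0.199 for log2 fold changes of 0.31 and 0.32). The other 6 were not called. Ccl12 was high in RA 1 and control 2, at 6.60 and 6.69, and its means were 5.77 ± 0.60 in the RA group and 5.81 ± 0.62 in the control group (SD, n = 4 each).

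Of the other activity-regulated genes, Btg2 stood highest in this order (r = 0.83, rank 14 of 3400 probe sets), followed by Npas4 (r = 0.74, rank 38) and Scg2, which encodes the precursor secretogranin II (r = 0.70, rank 58). A probe set of Homer1 stood near the end (r = -0.63, rank 3325). With the highest of 3400 correlations over 8 arrays chosen, such values are descriptions without a test.

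**Figure D4:**
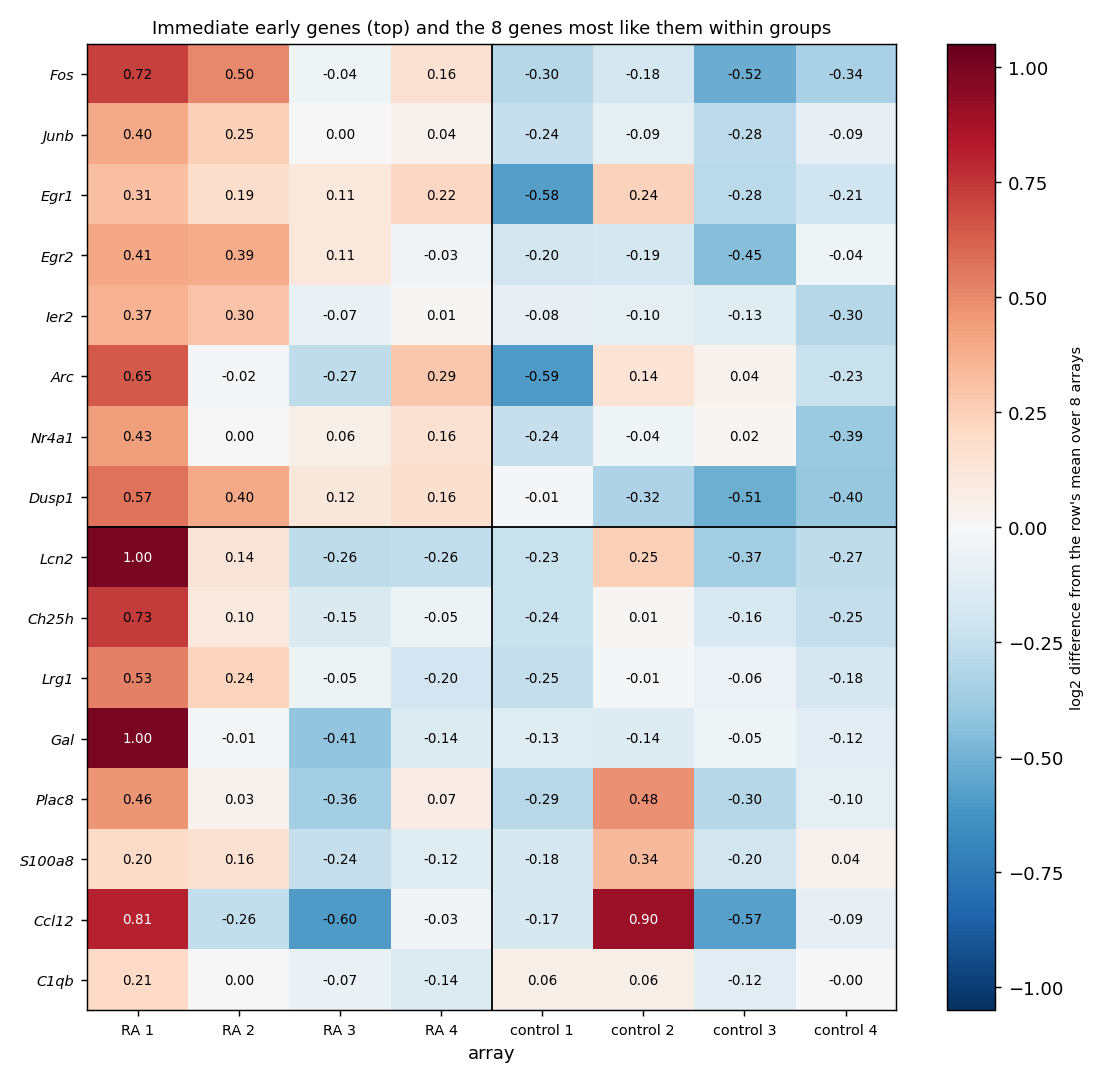
Log2 difference of each gene from its mean over the 8 arrays, RA arrays on the left and control arrays on the right of the line, for the 8 measured immediate early genes above and the 8 genes most like them within the groups below. RA 1 is the highest RA array in every row, and control 2 is the highest control array for 7 of the 8 genes below, Gal being the exception.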

How the data were processed

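Total hippocampal RNA was hybridised to 8 Affymetrix Mouse Genome arrays. The authors normalized the scanner signals with FARMS in R, and 1 log2 value per probe set and array was deposited and taken without further scaling. After 64 control probe sets were left out, 45037 were tested. The array medians were 5.83 to 5.84 in the RA group and 5.83 in the control group, and arrays correlated at 0.989 to 0.998. Gene names came from the annotation of the platform, updated to GRCm38.p6 (34945 probe sets name 1 gene).

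The rank product of the methods was run with 100 permutations at a threshold of 0.05, and limma 3.58.1 in R 4.3.3 gave fold changes and standard errors. Genes have 1 probe set each, that with the highest mean, unless stated. Both were tested on simulated data, in which each also called some unchanged probe sets. The number of arrays limits the precision. The genes and lists were chosen with earlier results of these data known. Named genes are every gene of the group, called list members or the 2 with the largest SD, and the 8 genes most alike; Btg2, Klf6, Homer1, Mapk10, Fkbp5 and Scg2 were added after their values were seen. Alternatives were quantile normalization, subtraction of medians, filters on mean and SD, leaving out each array, a replicate block, a stricter threshold, other probe sets, moderation with a trend and the methods' t-test. Leaving out RA 2 and control 1 together was chosen after seeing the data.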

Additional observations from a re-analysis of the deposited data

Results flagged for a closer look

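Groups of 4 arrays were searched for an array far from the other 3 in 32 probe sets, and 2 of 64 groups held one, where chance gives about 1 in 20. In the RA group, RA 2 had a log2 value of 8.26 for Dusp6, against 8.63 to 8.69 in the other RA arrays. In the control group, control 1 had a log2 value of 10.45 for Map2k1, against 10.48 to 10.49 in the other control arrays. RA 2 and control 1 were also the lowest arrays in the means of the granule cell and pyramidal lists, although not in every marker. No such array was found among the 9 probe sets of the immediate early genes.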

How the results depend on the processing

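The log2 fold changes of the 9 probe sets were recomputed with another normalization, without 1 array or without RA 2 and control 1. They kept their direction in all 99 values and moved by less than the SD within groups, although that of Arc, 0.32, was 0.16 without RA 1. Leaving out arrays could not reverse the 6 probe sets whose groups did not overlap. As the genes were chosen on this contrast, nothing is read from the kept direction. The replicate block leaves a fold change as it is in this design. The counts of calls did move. Without RA 1, RA 2, RA 3 and RA 4 the rank product called 17, 44, 37 and 40 probe sets higher in place of 408, and 969, 220, 433 and 484 without control 1, control 2, control 3 and control 4. Leaving out 1 array gave 129 to 314 lower calls in place of 257 (129 without control 2, 148 without control 3 and 163 without control 4). It called 52 higher with the filter on low means, 4 higher and 17 lower among probe sets with an SD above 0.01, 36 higher and 156 lower at a threshold of 0.01, and 35 higher without RA 2 and control 1. The cause was not tested. The activity-regulated genes called higher were 0 to 2 without 1 array, 0 under both filters and without RA 2 and control 1, 2 with the probe set of highest SD and 4 with any probe set, and those called lower 1 with either of these choices.

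limma called 28543 probe sets with quantile normalization and 41443 with subtraction of medians, of which 28292 and 41093 were nearly constant in the deposited values, 0 to 1 without 1 array (1 without RA 4), and none under its other alternatives. The methods' t-test gave 4095 an unadjusted p under 0.05 and none after adjustment. The array numbers are shared by the groups, but same-numbered arrays did not deviate together (r = -0.12, -0.33, 0.45 and -0.39). With the replicate block the rank product called 60 probe sets higher, 209 lower, none of the activity-regulated genes and 7 of the 9 probe sets of the immediate early genes, without Egr1 and Arc.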
